A study of Mus musculus with 4 samples.

Results

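The miR-148 and miR-152 family is a set of 3 microRNA (miRNA) genes, Mir148a, Mir148b and Mir152, whose dominant products carry the same seed. Its members were taken by name: all sequences of the deposited read table whose miRNA name was mmu-miR-148a-3p, mmu-miR-148a-5p, mmu-miR-148b-3p, mmu-miR-148b-5p or mmu-miR-152-3p were summed per name in each library. This gave 5 of the 1029 miRNA names in the table. Of its 85704 sequences, 36 belonged to miR-148a-3p, 44 to miR-148b-3p, 44 to miR-152-3p, 2 to miR-148a-5p and 7 to miR-148b-5p. The family took up 0.0960% and 0.0966% of all reads in the young libraries and 0.0672% and 0.0741% in the old ones.

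The data came from Ago-RP-Seq, in which a GW182 peptide pulls down Argonaute (Ago) proteins from a tissue lysate and the short RNAs bound to them (RISC-bound small RNAs, or R-sRNAs) are gel purified by size and sequenced. The tissue was cortex and hippocampus combined, 250 mg per sample by the labels, from C57BL/6J (BL6 in the labels) mice without a transgene or a treatment, and the study's methods describe the animals as male. Age was the only difference between the groups that the labels give: 2 libraries came from mice of 2 months and 2 from mice of 18 months. No source says whether each library was a separate animal, so p-values measure the spread between these libraries only.

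A miRNA gene is transcribed as a hairpin from which both arms can be cut out as a short duplex. Usually 1 strand, the guide, stays in the RISC and the other, the passenger, is discarded, and the guide pairs with target mRNAs mainly through its seed near the 5′ end, so miRNAs with a shared seed can repress overlapping sets of mRNAs. Members of this family are known to repress the DNA methyltransferase Dnmt1 and, for miR-148a, the low-density lipoprotein receptor in liver. Guides can also be altered at the 3′ end by enzymes that add uridine or adenosine, or trimmed by exonucleases.

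The mature guides are printed to show what the members share and where they differ, with the seed (bases 2 to 8) in capitals, as in RefSeq on GRCm38.p6.
miR-148a-3p: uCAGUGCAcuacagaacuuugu
miR-148b-3p: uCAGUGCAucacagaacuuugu
miR-152-3p: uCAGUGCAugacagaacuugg
Counted from the 5′ end, and with the base of the first-named miRNA first, miR-148a-3p and miR-148b-3p were identical at 20 of 22 positions and differed by C9U and U10C, so their last bases, including the 3′ end, were the same. Between miR-148a-3p and miR-152-3p, 18 of 21 positions were identical and the substitutions were C9U, U10G and U20G. Between miR-148b-3p and miR-152-3p, 19 of 21 positions were identical, with C10G and U20G.

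The 2 listed 5p members come from the opposite arms of the Mir148a and Mir148b hairpins and share another seed, again in capitals.
miR-148a-5p: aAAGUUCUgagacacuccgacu
miR-148b-5p: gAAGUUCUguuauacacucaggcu
The 4 guides of the miR-130 and miR-301 family were read beside the family because their 6mer seed (bases 2 to 7), AGUGCA, is the stretch that starts at base 3 of the miR-148 and miR-152 guides. The next base differs, so the longer seeds are not the same. Their RefSeq sequences are printed with bases 2 to 8 in capitals, and miR-301b-3p is named without its sequence.
miR-130a-3p: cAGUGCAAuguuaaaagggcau
miR-130b-3p: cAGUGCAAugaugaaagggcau
miR-301a-3p: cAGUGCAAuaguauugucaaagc

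The 3 genes lie apart in the mouse genome (GRCm38.p6). Mir148a is on the minus strand of chromosome 6 at chr6:51269812-51269910 and overlaps no other gene in the GENCODE M21 annotation, with miR-148a-3p at chr6:51269829-51269850 and miR-148a-5p at chr6:51269867-51269888. Mir148b lies at chr15:103285125-103285221 on the plus strand, in an intron of Copz1, a subunit of the COPI vesicle coat, with miR-148b-5p at chr15:103285148-103285171 and miR-148b-3p at chr15:103285185-103285206. Mir152 lies at chr11:96850393-96850465 on the plus strand, in an intron of Copz2, the paralog of Copz1, with miR-152-3p at chr11:96850439-96850459.

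The libraries held 9067007 to 11388999 reads behind the deposited scale (CPM, reads scaled to 1 total common to all libraries), so that 3 reads, the limit that a count of 0 allows, were worth 0.263 to 0.331 CPM. The family itself rested on 10060 and 11002 reads in the young libraries and 7099 and 6712 in the old ones. The brain label was checked with miRNAs of neurons (miR-124-3p, miR-9-5p and miR-128-3p), whose sum was between 169186 and 195706 CPM in the 4 libraries, against 5.01 to 7.11 CPM for the liver marker miR-122-5p. Of 21 marker names for 9 cell types or tissues, 20 were found, none of them at 0 in a whole group. The blood marker miR-486a-5p was not matched to a name, so the blood sum given below leaves it out.

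In the RISC of these brains the family was led by its 3p arms, and its total was lower at 18 months than at 2 months. The 3 guides together had 954 and 954 CPM in the young libraries and 663 and 735 CPM in the old ones, 954 ± 0.221 against 699 ± 50.7 CPM (mean ± SD, n = 2 per age). The ages did not overlap, the difference was -255 CPM, and the two-sided exact permutation test gave p = 0.33, the lowest that 2 against 2 libraries can give. After median of ratios scaling, which sets the libraries by their typical miRNA, the difference was -135 CPM. The members did not share this difference evenly. The mean of miR-148a-3p was about 1.97 times as high at 2 months as at 18 months. That of miR-148b-3p differed less, and the mean of miR-152-3p was close at both ages.

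miR-148a-3p had 306 and 367 CPM in the young libraries and 159 and 183 CPM in the old ones. Both old libraries were below both young ones, and the means were 336 ± 42.9 and 171 ± 16.6 CPM (SD, n = 2 per age), a change of -49.1%. limma on log2(CPM + 1) gave a log2 change of -0.97 with a standard error of 0.22 and an unadjusted p of 0.00391, which was past the threshold of 0.05 used here for a call. With Benjamini-Hochberg adjustment over all 456 miRNAs tested, limma gave an adjusted p of 0.120, so the call was not past the threshold after correction.

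Many other miRNAs differed as well. Of the 456 miRNAs that averaged 10 CPM or more, 74 (16.2%) were called by unadjusted p in limma, 55 (12.1%) of them lower at 18 months and 19 (4.17%) higher, and 1 (0.219%) was called by adjusted p. The ages did not overlap for 53.5% of these miRNAs, and 41.4% were lower at 18 months without overlap. The median log2 change of all miRNAs tested was -0.22 on the CPM scale and -0.01 after median of ratios scaling. On that scale miR-148a-3p had a log2 change of -0.76 with an unadjusted limma p of 0.0119 and an adjusted limma p of 0.188, and of all miRNAs tested 14.0% were called, 5.48% lower and 8.55% higher. Count models on the recovered reads gave it a log2 change of -0.76 in edgeR (unadjusted p = 0.0115, adjusted p = 0.196) and of -0.77 in DESeq2 (unadjusted p = 0.00507, adjusted p = 0.0797). There the background was 13.6% called in edgeR, 5.04% lower and 8.55% higher, and 15.1% in DESeq2, 5.7% lower and 9.43% higher, with 4.17% past the adjusted p in DESeq2 and 0.0% in edgeR. In limma with no filter 12.1% of all 1029 miRNAs were called, 9.04% lower and 3.11% higher, and 0.194% by adjusted p. With replicate number as a block the shares were 17.3%, 14.5% lower and 2.85% higher, and miR-148a-3p was past the unadjusted threshold in each of these fits.

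miR-148b-3p had 439 and 369 CPM in the young libraries and 277 and 355 CPM in the old ones. The lowest young library was only slightly above the highest old one, and the means were 404 ± 49.7 and 316 ± 54.8 CPM (SD, n = 2 per age). The log2 change of -0.36 with a standard error of 0.23 was not called (limma, unadjusted p = 0.170, adjusted p = 0.442), and was -0.15 after rescaling. It was -0.18 without 18-month replicate 1 and -0.23 without 2-month replicate 1, and not called when any single library was left out.

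miR-152-3p had 209 and 219.1 CPM in the young libraries and 227 and 197 CPM in the old ones. The old libraries lay on either side of the young ones, with means of 214 ± 6.95 and 212 ± 20.7 CPM (SD, n = 2 per age). Its log2 change was -0.02 with a standard error of 0.21 (limma, unadjusted p = 0.933, adjusted p = 0.969), and its sign turned to 0.19 after rescaling by the median of ratios, so no direction can be given for it.

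**Figure D1:**
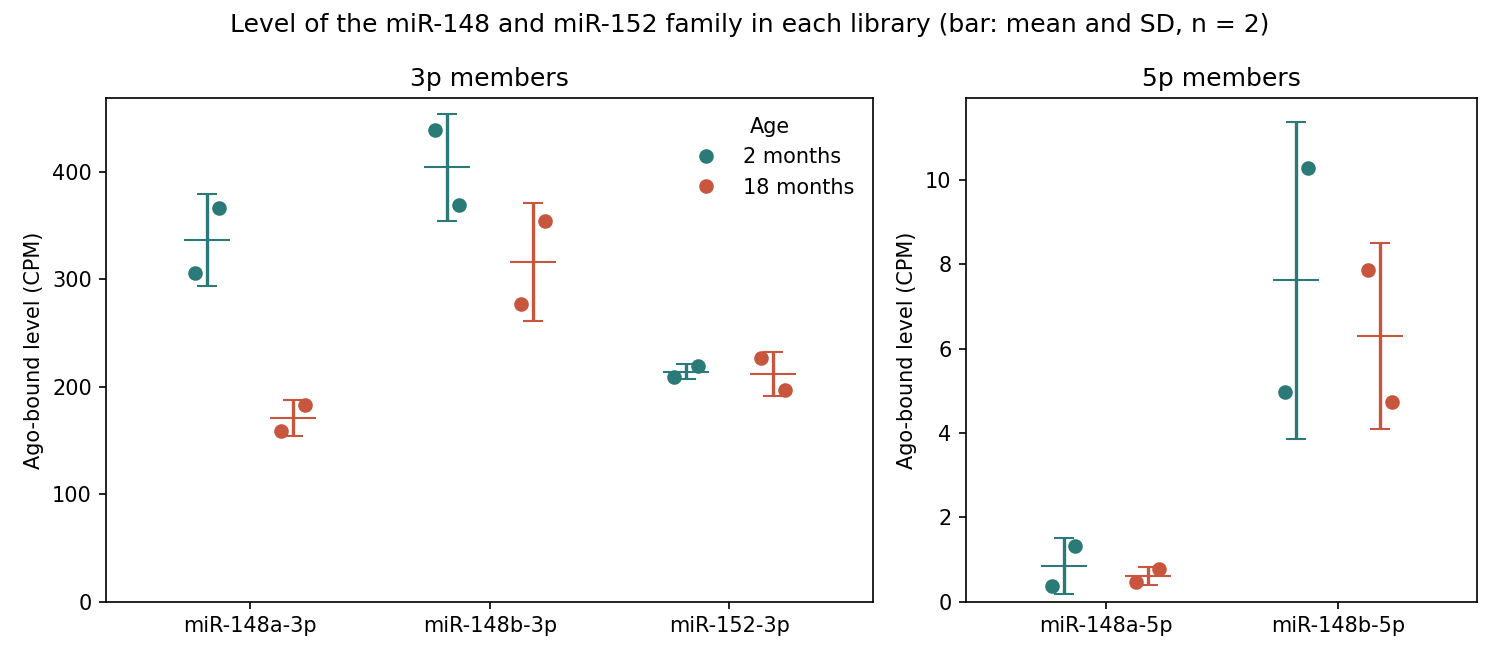
Level of each member in each library, in CPM, with 2-month libraries and 18-month libraries side by side (points: single libraries, bars: mean and SD, n = 2). Both 18-month libraries of miR-148a-3p, at 159 and 183 CPM, lie below both 2-month libraries, while the libraries of miR-152-3p overlap. The 5p members, at 10.3 CPM or less in each library, lie on an axis of their own.

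Over all 4 libraries miR-148b-3p ranked 178 among the 1029 miRNA names by mean level, miR-148a-3p ranked 209 and miR-152-3p ranked 218. The order of the means differed between the ages in these libraries. In the young libraries the order was miR-148b-3p, miR-148a-3p and then miR-152-3p, although the first 2 had 369 and 367 CPM in replicate 2, within their spread. In both old libraries miR-152-3p was above miR-148a-3p, but in 18-month replicate 2 the 2 were close, at 197 and 183 CPM.

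The ratio within a library does not depend on how the library was scaled. The log2 ratio of miR-148a-3p to miR-152-3p was 0.55 and 0.74 in the young libraries and -0.51 and -0.11 in the old ones. It was positive in both young and negative in both old libraries, with means of 0.65 ± 0.14 and -0.31 ± 0.28 (SD, n = 2 per age), a difference of -0.95 (exact permutation test, p = 0.33, the lowest possible). The log2 ratio of miR-148a-3p to miR-148b-3p was -0.52 and -0.01 in the young libraries and -0.80 and -0.96 in the old ones, again without overlap, with a difference of -0.61 (exact permutation test, p = 0.33). This difference was -0.36 without 2-month replicate 2, the library in which the members were nearly equal. That of miR-148b-3p to miR-152-3p was 1.07 and 0.75 against 0.29 and 0.85, and there the ages overlapped.

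As shares of the 3 guides, miR-148a-3p made up 32.1% and 38.4% in the young libraries and 24.03% and 24.9% in the old ones. The old libraries were close together and below both young ones, a difference of -10.8 percentage points (exact permutation test, p = 0.33, n = 2 per age). miR-152-3p took 21.9% and 23.0% against 34.2% and 26.9%, higher in both old libraries by 8.07 points on average and by 4.41 points without 18-month replicate 1. miR-148b-3p took 46.0% and 38.6% against 41.8% and 48.3%, where the ages overlapped. In all, 24 values of this kind per library were compared between the ages, and none could reach a p below 0.33. The shares of sequence forms within each member, read further below, were compared in the same way and are not in that count.

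**Figure D2:**
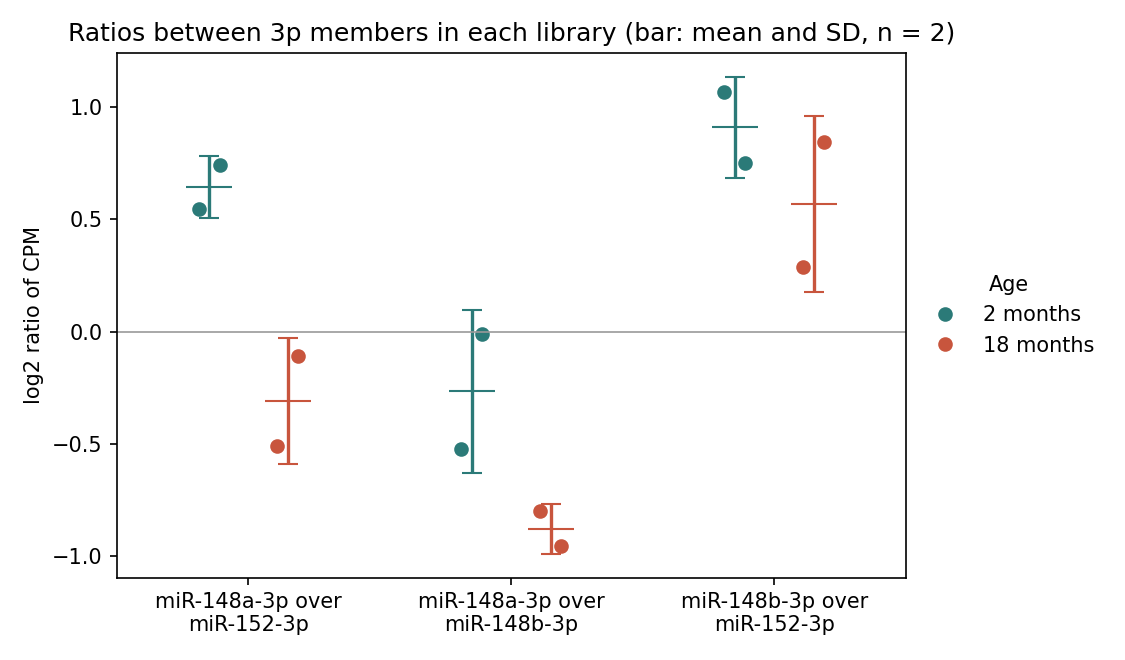
log2 ratio of CPM between pairs of 3p members in each library (points: single libraries, bars: mean and SD, n = 2), with a line at 0 where the members are equal. The ratio of miR-148a-3p to miR-152-3p is above 0 in both 2-month libraries and below 0 in both 18-month libraries.

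The 5p arms were rare. miR-148a-5p had 0.381 and 1.32 CPM in the young libraries and 0.473 and 0.772 CPM in the old ones, from 4, 15, 5 and 7 reads. The ages overlapped, and with its mean of 0.736 CPM it was below the 10 CPM needed for the test; with no filter limma gave a log2 change of -0.15 with a standard error of 0.35 and an adjusted p of 0.864. miR-148b-5p had 4.96 and 10.3 CPM in the young and 7.85 and 4.74 CPM in the old libraries, from 52, 117, 83 and 43 reads. It too was below the filter and overlapped between the ages, with a log2 change of -0.20, a standard error of 0.44 and an adjusted p of 0.848 in limma with no filter. Averaged over the libraries, its RefSeq form held 10.4% of its level and 3′ trimmed forms held 82.7%.

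How strongly the 3p arm outweighed the 5p arm differed between the hairpins. Of the reads on both arms of Mir148a, 31 of 10756 were from the 5p arm, a share of 0.288% (Wilson 95% confidence interval 0.203% to 0.409%), or 346 guide reads for each passenger read. For Mir148b the share was 1.94% (295 of 15243 reads, interval 1.73% to 2.17%), or 50.7 guide reads per passenger read. The 5p arm of Mir152, which is not a listed member, had a share of 0.337% (30 of 8904 reads, interval 0.236% to 0.481%). These intervals cover counting error only, since reads from PCR are not independent molecules.

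By library the 5p share of Mir148a was 0.124% and 0.358% at 2 months and 0.296% and 0.420% at 18 months. That of Mir148b was 1.12% and 2.71% at 2 months and 2.75% and 1.32% at 18 months, so the libraries of each age lay far apart and the mean difference between the ages was within that spread. In each of the 4 libraries the 5p share of Mir148b was above that of Mir148a.

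Most of the reads of each guide began at the reference 5′ end, and the 3 guides differed mainly in what stood at the 3′ end. The hairpins are printed from the mature 5′ end, with the 4 bases that follow the mature 3′ end in capitals, because a read that goes on with other bases than these carries a tail that the genome does not encode there.
Mir148a: ucagugcacuacagaacuuuguCUCU
Mir148b: ucagugcaucacagaacuuuguCUCG
Mir152: ucagugcaugacagaacuuggGCCC
Past the mature 3′ end Mir148a and Mir148b thus go on with the same 3 bases.

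The reference sequence made up 83.6% and 82.5% of miR-148a-3p in the young libraries and 79.2% and 78.6% in the old ones. For miR-148b-3p it made up 67.2% and 60.5% against 58.8% and 68.5%, and for miR-152-3p 62.0% and 64.9% against 64.3% and 63.2%. The share of miR-148a-3p was the highest of the 3 in each library, and it was lower in both old libraries by 4.11 percentage points on average, while the other guides overlapped between the ages. Over the 456 miRNAs tested, the share of the most abundant sequence was lower at 18 months without overlap in 25.2%, and the median difference was -1.11 percentage points.

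The leading reads of each 3p member are printed as deposited, as DNA, with untemplated 3′ bases in capitals.
miR-148a-3p, reference: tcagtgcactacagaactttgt
miR-148a-3p, trimmed by 1 base: tcagtgcactacagaactttg
miR-148a-3p, extended along the hairpin: tcagtgcactacagaactttgtc
miR-148b-3p, reference: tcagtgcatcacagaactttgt
miR-148b-3p, uridine tail: tcagtgcatcacagaactttgtT
miR-148b-3p, trimmed by 1 base: tcagtgcatcacagaactttg
miR-152-3p, reference: tcagtgcatgacagaacttgg
miR-152-3p, uridine tail: tcagtgcatgacagaacttggT
miR-152-3p, adenosine tail: tcagtgcatgacagaacttggA

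miR-148b-3p and miR-152-3p often ended in an added uridine, and miR-148a-3p seldom did. Reads with a tail of uridine alone made up 19.2% and 22.6% of miR-148b-3p in the young libraries and 22.8% and 15.5% in the old ones. The Wilson 95% intervals of these shares ran from 14.3% at the lowest to 24.4% at the highest, and the ages overlapped. For miR-152-3p the shares were 17.7% and 16.3% against 15.7% and 16.5%, and for miR-148a-3p 1.12% and 1.17% against 1.19% and 0.844%.

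Averaged over the 4 libraries, the uridine tail share of miR-148b-3p exceeded that of miR-148a-3p by 19.0 ± 3.29 percentage points (SD of the paired difference) and was higher in 4 of 4 libraries (two-sided exact paired permutation test, p = 0.125, the lowest that 4 libraries allow). This pair has the same bases at the 3′ end. miR-152-3p exceeded miR-148a-3p by 15.5 ± 0.893 points, also in 4 of 4 libraries (exact paired permutation test, p = 0.125). miR-148b-3p and miR-152-3p differed by 3.503 ± 3.89 points and in 3 of 4 libraries (exact paired permutation test, p = 0.25), within their spread.

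Reads with an adenosine tail were mainly a feature of miR-152-3p, at 9.53% and 7.90% in the young libraries and 8.64% and 6.93% in the old ones. On average the share was 8.25%, against 1.38% for miR-148a-3p and 1.38% for miR-148b-3p, and miR-152-3p was higher than each in 4 of 4 libraries (exact paired permutation test, p = 0.125). Extension along the hairpin was mainly found in miR-148a-3p, with a mean share of 3.91% against 1.64% for miR-152-3p and 0.141% for miR-148b-3p. It was higher for miR-148a-3p than for each in 4 of 4 libraries (exact paired permutation test, p = 0.125). In all, 21 such comparisons between guides were made, and none could pass a threshold of 0.05.

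Sequences that lie on the 3 hairpins but carried no miRNA name in the table were not counted by the rule. There were 51 of them, with 11.8 and 11.8 CPM in the young libraries and 8.52 and 7.94 CPM in the old ones, so they are small beside the 159 to 367 CPM of miR-148a-3p.

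**Figure D3:**
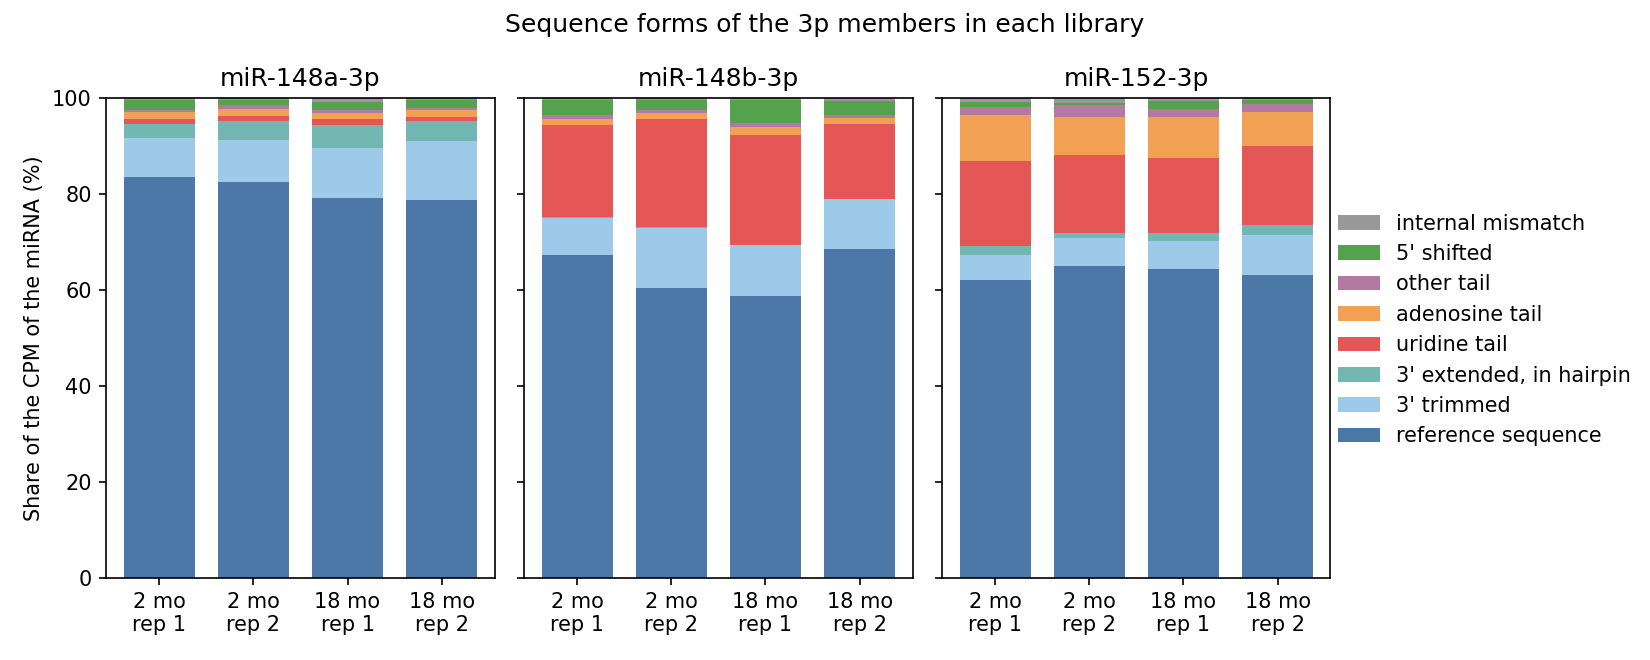
Share of the CPM of each 3p member, in percent, held by each sequence form in each of the 4 libraries (stacked bars, starting at 0). The form labelled internal mismatch also holds reads with bases before the mature 5′ end that the hairpin does not have there. Uridine tails take 15.5% to 22.8% of miR-148b-3p and 15.7% to 17.7% of miR-152-3p, against 0.844% to 1.19% of miR-148a-3p.

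Most of the CPM difference of miR-148a-3p between the ages lay in its reference sequence, which held 81.6% of the member's mean level. This sequence had 256 and 302 CPM in the young libraries against 126.1 and 143.8 CPM in the old ones. Both old libraries were below both young ones, with a log2 change of -1.04 and a standard error of 0.29 in limma (unadjusted p = 0.00512, adjusted p = 0.303 over 14287 sequences). The form trimmed by 1 base had 15.3 and 25.6 CPM against 14.2 and 16.5 CPM, where the ages overlapped, with a log2 change of -0.35. The extended form had 7.25 and 10.4 CPM against 6.15 and 6.07 CPM, lower in both old libraries. As shares of miR-148a-3p, however, all 3′ trimmed reads made up 8.04% and 8.77% in the young libraries and 10.5% and 12.4% in the old ones. Reads extended along the hairpin made up 2.87% and 3.93% against 4.69% and 4.16%. Both shares were thus higher in both old libraries, while the tailed and the 5′ shifted shares overlapped between the ages.

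Of the 14287 sequences that averaged 1 CPM or more, 1443 (10.1%) were called by unadjusted p in limma, 605 (4.23%) lower and 838 (5.87%) higher, and 6 (0.042%) by adjusted p, while 41.7% did not overlap between the ages and 21.3% were lower without overlap. Of all family sequences, 34 passed this filter. Among them 3 were called lower, all 3 of them miR-148a-3p, none was called higher, and none passed the adjusted p; their median log2 change was -0.22 against -0.01 over all sequences tested. Beside the reference sequence, a form with a uridine tail, tcagtgcactacagaactttgtT, was at 3.34 and 3.86 CPM in the young against 1.80 and 0.993 CPM in the old libraries (limma log2 change -0.96, unadjusted p = 0.0228, adjusted p = 0.423). A form with an adenosine in place of the last base, tcagtgcactacagaactttgA, was at 1.81 and 2.37 CPM against 0.567 and 0.662 CPM (limma log2 change -0.93, unadjusted p = 0.0238, adjusted p = 0.426). Both rest on few reads, and the limma values depend on the pseudocount, with log2 changes of -0.43 and -0.34 at a pseudocount of 5 and of -1.36 and -1.61 at 0.1. In the count models the log2 changes were -1.34 and -1.74 in edgeR, still called, and -1.35 and -1.76 in DESeq2, where both lost the call (unadjusted p = 0.0713 and 0.0667). The limma call was also lost when single libraries were left out. For the uridine form the unadjusted limma p was then 0.0846 without 2-month replicate 2 and 0.155 without 18-month replicate 2, and for the adenosine form 0.118 without 2-month replicate 2, 0.0780 without 18-month replicate 1 and 0.0574 without 18-month replicate 2. All 9 tested sequences of miR-148a-3p had a negative log2 change, with a median of -0.64, whereas the medians were -0.20 for the 11 of miR-148b-3p and -0.06 for the 12 of miR-152-3p. Sequences of 1 miRNA share their source and are not replicates.

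Single sequences of the other guides differed less. The reference sequence of miR-148b-3p had 295 and 223.02 CPM in the young libraries and 163 and 243 CPM in the old ones, where the ages overlapped. Its form with a uridine tail, which held 18.3% of the member, had 77.5 and 76.1 CPM against 58.4 and 51.1 CPM, lower in both old libraries but not called (limma log2 change -0.48, unadjusted p = 0.132, adjusted p = 0.613). The reference sequence of miR-152-3p had 130 and 142.2 CPM against 146 and 125 CPM, and its form with a uridine tail 31.0 and 29.7 CPM against 29.4 and 26.8 CPM.

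The study reads each R-sRNA by its 6mer seed (bases 2 to 7) and assigns it the viability of cells transfected with a short RNA of that seed, given here as the mean of 3 mouse cell lines in percent of control, where a low value marks a toxic seed. The score belongs to the seed and was not measured in these brains. The family seed CAGUGC had a viability of 69.7%, and the family's reads made up 98.2% of all reads with that seed. The passenger seed AAGUUC had a lower viability of 58.8%, but all reads with it came to a mean of only 9.12 CPM, of which the family held 82.4%.

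A start 1 base further in gives the seed AGUGCA, which the miR-130 and miR-301 guides carry and whose viability was 88.4%. The most abundant reads of this kind are printed with the 6mer seed in capitals.
miR-148a-3p, shifted start: cAGTGCActacagaactttgt
miR-148b-3p, shifted start: cAGTGCAtcacagaactttgt
Such reads made up 1.24% of miR-148a-3p and 2.90% of miR-148b-3p, and in total the family gave 2.26% of all reads with the seed AGUGCA, against 93.5% from the miR-130 and miR-301 guides. The share of miR-148b-3p starting at this base was 2.76% and 1.90% in the young libraries and 4.47% and 2.89% in the old ones, and it was above that of both other guides in 4 of 4 libraries (exact paired permutation test, p = 0.125). Over the 3 guides together, reads whose seed was not the reference one made up 2.69% and 1.73% in the young libraries and 3.55% and 2.48% in the old ones, where the ages overlapped.

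The CPM-weighted seed viability of the 3 guides was nearly constant, at 70.06% and 69.89% in the young libraries and 70.20% and 70.10% in the old ones. It was slightly higher in both old libraries, by 0.17 percentage points on average (exact permutation test, p = 0.33, n = 2 per age). The mean length of the guides was 21.87 and 21.84 bases at 2 months and 21.77 and 21.76 bases at 18 months, shorter in both old libraries by 0.085 bases. Within each guide the difference was smaller, at -0.012 bases for miR-148a-3p, -0.040 for miR-148b-3p and -0.039 for miR-152-3p, against a median of -0.034 over all miRNAs tested. Mean length was lower at 18 months without overlap in 34.4% of the miRNAs tested, and the shorter miR-152-3p took a larger share of the guides at that age.

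The miR-130 and miR-301 guides, which are known in part as regulators of growth factor signalling and of vessel growth, were also at a lower mean level at 18 months. miR-130a-3p had 347 and 379 CPM in the young libraries and 161 and 283 CPM in the old ones, with a log2 change of -0.76 and a standard error of 0.30 (limma, unadjusted p = 0.0447, adjusted p = 0.287). Its 2 old libraries differed from each other by more than the young ones did, and without 18-month replicate 1 the log2 change was -0.36 and the unadjusted limma p 0.248. The call was also lost without 2-month replicate 1 (unadjusted limma p 0.0706) and without 2-month replicate 2 (0.113), and after median of ratios scaling (log2 change -0.55, unadjusted limma p 0.105). miR-130b-3p had 33.4 and 27.6 CPM against 19.1 and 20.7 CPM, miR-301a-3p 372 and 347 CPM against 215 and 347 CPM, and miR-301b-3p 17.2 and 15.9 CPM against 11.2 and 12.6 CPM. Of these 4 miRNAs 1 was called, lower at 18 months, and 4 of 4 were lower without overlap, against the 12.1% and 41.4% of all miRNAs tested. The margin was narrow for miR-301a-3p, whose higher old library almost equalled its lower young one. Overlap was read on the CPM scale only. The log2 change of miR-301a-3p was -0.40 on that scale and -0.18 after median of ratios scaling (unadjusted limma p 0.513).

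**Figure D4:**
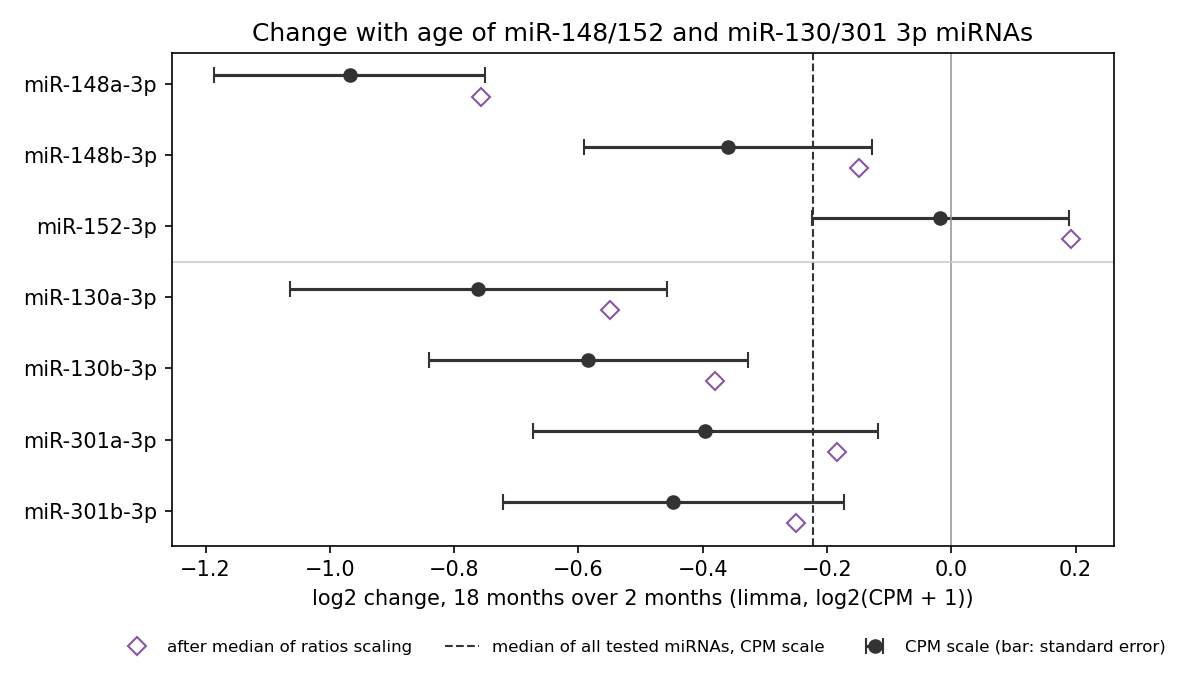
log2 change from 2 to 18 months in limma for the 3 guides of the family and the 4 of miR-130 and miR-301 (points: CPM scale, bars: standard error, open diamonds: after rescaling by the median of ratios, dashed line: median of all 456 miRNAs on the CPM scale). miR-148a-3p lies farthest to the left at -0.97, and miR-152-3p moves from -0.02 to 0.19 with the rescaling.

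The miRNAs most like miR-148a-3p over the 4 libraries were found by the Euclidean distance of log2(CPM + 1) centred on each miRNA's mean, among 270 miRNAs with a mean of at least 100 CPM. The nearest was miR-299a-5p at a distance of 0.184, with 162 and 169 CPM in the young and 72.3 and 92.6 CPM in the old libraries. miR-669a-3p, which shares its reads with miR-669o-3p in the table, followed at 0.191, with 210 and 214 CPM against 105 and 110 CPM. miR-370-3p was at 0.196, with 526 and 536 CPM against 232 and 274 CPM. With 4 libraries, such a distance describes mainly the difference between the ages.

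Markers of other cells of brain tissue were read beside these results, on the CPM scale only and without rescaling by the median of ratios. On that scale 41.4% of all miRNAs tested were lower at 18 months without overlap. The endothelial miR-126a-3p had 9242 and 8854 CPM in the young libraries and 2557 and 6489 CPM in the old ones, and was called lower. The smooth muscle and pericyte markers miR-143-3p and miR-145a-5p summed to 6415 and 6559 CPM against 5033 and 4915 CPM, and the immune markers to 3142 and 3569 CPM against 2771 and 2902 CPM. These 3 lists were lower in both old libraries, as were miR-148a-3p and the liver marker, while the sums for oligodendrocytes (6565 and 5180 against 4119 and 6365 CPM), blood (1798 and 3374 against 1698 and 2818 CPM) and choroid plexus (2120 and 2645 against 2269 and 2805 CPM) overlapped between the ages. Of the 18 markers tested, 1 was called lower (miR-126a-3p) and 1 higher, a marker of muscle, whose list summed to 194 and 150 CPM against 192 and 230 CPM. Over all miRNAs tested, 12.1% were called lower and 4.17% higher. The part of these cells in the result for miR-148a-3p was not tested. In bulk tissue, fewer cells of a type and less RNA per cell cannot be told apart.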

How the data were processed

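Argonaute-bound small RNAs of 4 brain libraries (2 per age) were analysed from 1 deposited table of read sequences. Per the methods of the study, the authors trimmed the reads (Trim Galore by the submitters' processing notes), removed rare reads, assigned the others to known mouse small RNAs with BLAST, dropped artificial sequences and scaled the libraries to the same total, so the deposited values are CPM. The genome build of this step is not given in the sources used here, and near-identical miRNAs can share reads. The deposited viability score is the mean of 3 mouse cell lines for each 6mer seed, looked up by the authors. Columns with a total over libraries and with other RNA classes were not used, and 0 sample columns were left unassigned.

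All nonzero CPM values were whole multiples of the value of 1 read within 0.1 read, which gave reads and depth (9067007 to 11388999 reads per library). Sequences were summed by miRNA name. limma 3.58.1 with trend, in R 4.3.3, was run on log2(CPM + 1), a scale that understates the change of low miRNAs, for all miRNAs averaging at least 10 CPM and all sequences averaging at least 1 CPM, with age as the only term. Calls used an unadjusted p under 0.05, as in the study's methods, and Benjamini-Hochberg adjusted p is given beside it. Values per library were compared by two-sided exact permutation tests in scipy 1.17.1. A tail was the 1 to 3 bases left after the longest match of a read, from its first base, to the RefSeq hairpin. Reads with a substitution or deletion close to the 3′ end can therefore count as tailed. Alternatives were edgeR 4.0.16 and DESeq2 1.42.0 on the recovered reads, other filters, pseudocounts (0.1 and 5) and scaling, a block for replicate number and leaving out each library. The limma step was checked on simulated data. Named sequences were the 3 most abundant of each member, the most abundant of each seed with at least 1% of the member, and the 3 with the smallest p; those of the 5p members are given only as sums. The members and lists were chosen with earlier results of these data known. Sequences and coordinates came from RefSeq (GRCm38.p6), and overlaps from GENCODE M21.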

Additional observations from a re-analysis of the deposited data

How the results depend on the processing

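The number of libraries, 2 per age, limits every test, and depth limits the 5p members and the rare sequence forms. The 74 miRNAs called in limma became 125 with no filter, 43 at a minimum mean of 100 CPM and 1 by adjusted p, 62 in edgeR and 69 in DESeq2, 79 with the replicate number as a block and 55 to 74 when leaving out each library. The 1443 sequences became 3327 with no filter, 424 at a minimum mean of 10 CPM, 941 in DESeq2, 6 by adjusted p and 1065 to 1411 when leaving out each library. For miR-148a-3p the unadjusted p stayed under 0.05 in 13 of 13 alternatives, its adjusted p ran from 0.0797 (DESeq2) to 0.348 (without 18-month replicate 1), and its log2 change from -1.10 to -0.84 when leaving out each library, with -0.76 in edgeR. With the replicate block its unadjusted p was 0.00627 and its adjusted p 0.220; same-numbered libraries share only a number (correlation of deviations 0.180). miR-130a-3p was not called under 7 alternatives, its log2 change running from -1.17 to -0.36 when leaving out each library. The direction of miR-152-3p turned under edgeR (0.21), DESeq2 (0.20) and median of ratios scaling (0.19), and ran from -0.12 to 0.0813 when leaving out each library; its reference sequence turned under edgeR (0.000759), DESeq2 (0.00177) and that scaling (0.20; -0.12 to 0.10 when leaving out each library), and its uridine-tailed form under that scaling (0.0973). The trimmed form of miR-148b-3p turned under that scaling too (0.00233). When leaving out each library, the log2 change of the adenosine-tailed form of miR-152-3p ran from -0.52 to 0.10, of the trimmed and shifted forms of miR-148a-3p from -0.71 to 0.0054 and from -0.66 to 0.19, of the shifted form of miR-148b-3p from -0.22 to 0.99, and of the 2 leading sequences of miR-148b-5p from -1.07 to 0.16 and from -0.35 to 0.71. The 5p share of Mir148b ran from -0.673 to 0.920 points, that of Mir148a from 0.00021 to 0.234, and the tailed share of the guides from -1.21 to 3.16 (0.976 with all libraries). The guide sum ran from -291 to -220 CPM (-135 after rescaling), the share of miR-148a-3p from -13.9 to -7.60 points and its log2 ratio to miR-152-3p from -1.15 to -0.75. Chosen after seeing the data, leaving out each library also gave -0.87 to -0.36 for the log2 ratio of miR-148a-3p to miR-148b-3p, 4.41 to 11.7 points for the share of miR-152-3p and -4.66 to -3.56 points for the reference sequence share of miR-148a-3p. With a minimum of 1 CPM per sequence no 5p sequence of Mir148a was left. The causes were not tested.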
